A study of Homo sapiens with 2 samples.

Results

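Oxidative phosphorylation subunit transcripts were followed across 6 breast cancer cell lines as the 100 of 36601 genes whose symbols begin with one of the prefixes of that system's genes (ATP5, COX4I, COX5, COX6, COX7, COX8, UQCR, the NDUFA, NDUFB, NDUFC, NDUFS and NDUFV series, and MT-ATP, MT-CO, MT-CYB and MT-ND), without the NDUFAF assembly genes and without pseudogenes. Of these, 13 are coded in the mitochondrial genome, 84 in the nucleus, and 3 are noncoding neighbours (NDUFB2-AS1, NDUFV2-AS1 and NDUFA6-DT) that were kept out of all sums. The 84 nuclear-coded genes comprise 37 of complex I, 9 of complex III, 19 of complex IV and 19 of complex V, and include tissue-specific paralogs and the ATP synthase inhibitor ATP5IF1. Among the 84, 76 reached 10 CPM (a gene's UMIs per 1000000 gene UMIs) in at least 1 line and are called measured. The others were UQCRHL, COX7B2, NDUFA4L2, COX8C, COX6A2, COX6B2, COX4I2 and ATP5MGL.

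The measurements are single-cell 3′ RNA counts in unique molecular identifiers (UMIs) from cultures with no treatment named in the labels, 1 per line, that were tagged with lipid oligos and loaded as 2 pools of 3 lines. The first pool held BT-474, a line with ERBB2 amplification, MDA-MB-453, a luminal line with androgen receptor, and MDA-MB-231, a mesenchymal triple-negative line. The second held HCC38, Hs578T and MDA-MB-436, which are triple-negative as well. The 17605 barcodes fall into 6 suffix groups of 2288 to 3708 barcodes, with median depths of 19848 to 35134 UMIs per barcode. Because the files name no line for a suffix, each group is called by the line whose markers it led within its pool. The BT-474-like, MDA-MB-231-like, Hs578T-like and MDA-MB-436-like groups led all of their 7, 6, 5 and 4 markers. The MDA-MB-453-like group led 3 of 4 and the HCC38-like group 4 of 5, the exceptions being ALOX15B and KRT17. The BT-474-like and Hs578T-like groups each also led 1 marker of another line of their pool. The markers were chosen with earlier results of these data known, and names were assigned so that most markers were led. The counts are therefore no independent check of the names. No barcode sequence was shared within a capture and 22 were shared between captures. With 1 culture per line there is no replicate and no test. Differences between lines are described with 95% intervals that cover counting error only, and differences between pools cannot be told apart from capture.

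Oxidative phosphorylation passes electrons through complexes I, III and IV of the inner mitochondrial membrane, pumps protons, and uses the gradient to make ATP in complex V. Each of these complexes combines core subunits made inside the organelle from mitochondrial DNA with subunits coded by nuclear genes, translated in the cytosol and imported. Breast cancer cells draw ATP from both glycolysis and this system, and lines differ in that balance.

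Summed over genes, the mitochondrial-coded share differed far more between lines than the nuclear-coded share. Over barcodes with at most 20% of their UMIs from MT- genes, the 13 mitochondrial-coded genes took 14.3% of UMIs in BT-474-like, 10.2% in MDA-MB-453-like, 6.37% in MDA-MB-231-like, 5.97% in HCC38-like, 5.95% in Hs578T-like and 7.49% in MDA-MB-436-like barcodes. The 84 nuclear-coded genes together took 2.69% in BT-474-like, 2.92% in MDA-MB-453-like, 2.70% in MDA-MB-231-like, 2.62% in HCC38-like, 2.31% in Hs578T-like and 2.89% in MDA-MB-436-like barcodes. The highest group stood 2.40-fold above the lowest for the mitochondrial-coded share and 1.27-fold for the nuclear-coded share. Gene by gene the kinds lay closer. The median range over groups was 2.49-fold for the 13 mitochondrial-coded genes and 2.22-fold for the 76 measured nuclear-coded genes.

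The ratio of mitochondrial-coded to nuclear-coded UMIs was 5.31 (95% interval 5.30 to 5.32) in BT-474-like and 3.50 (3.49 to 3.50) in MDA-MB-453-like barcodes. It was 2.36 in MDA-MB-231-like, 2.28 in HCC38-like, 2.58 in Hs578T-like and 2.60 in MDA-MB-436-like barcodes, and no intervals of any pair of groups overlapped. BT-474-like barcodes thus stood apart, and the 4 lowest groups lay close together across both captures. Within the first capture the highest ratio was 2.25-fold the lowest, and within the second capture 1.14-fold. A UMI is counted at the 3′ end and different transcripts may be captured with different efficiency, so the ratio is read between lines and not as the relative abundance of the transcripts.

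Nuclear-coded subunits reached 26887 CPM in BT-474-like, 29200 CPM in MDA-MB-453-like, 27024 CPM in MDA-MB-231-like, 26206 CPM in HCC38-like, 23069 CPM in Hs578T-like and 28858 CPM in MDA-MB-436-like barcodes. The order depended on the scaling. MT- UMIs occupy part of the total, and with them taken out of the denominator the highest group was still MDA-MB-453-like at 32519 CPM and the lowest Hs578T-like at 24528 CPM. With library sizes scaled by the trimmed mean of M-values (TMM), a setting added after seeing the data, BT-474-like was highest at 29811 CPM and HCC38-like lowest at 22543 CPM, against 24134 CPM in Hs578T-like barcodes.

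**Figure D1:**
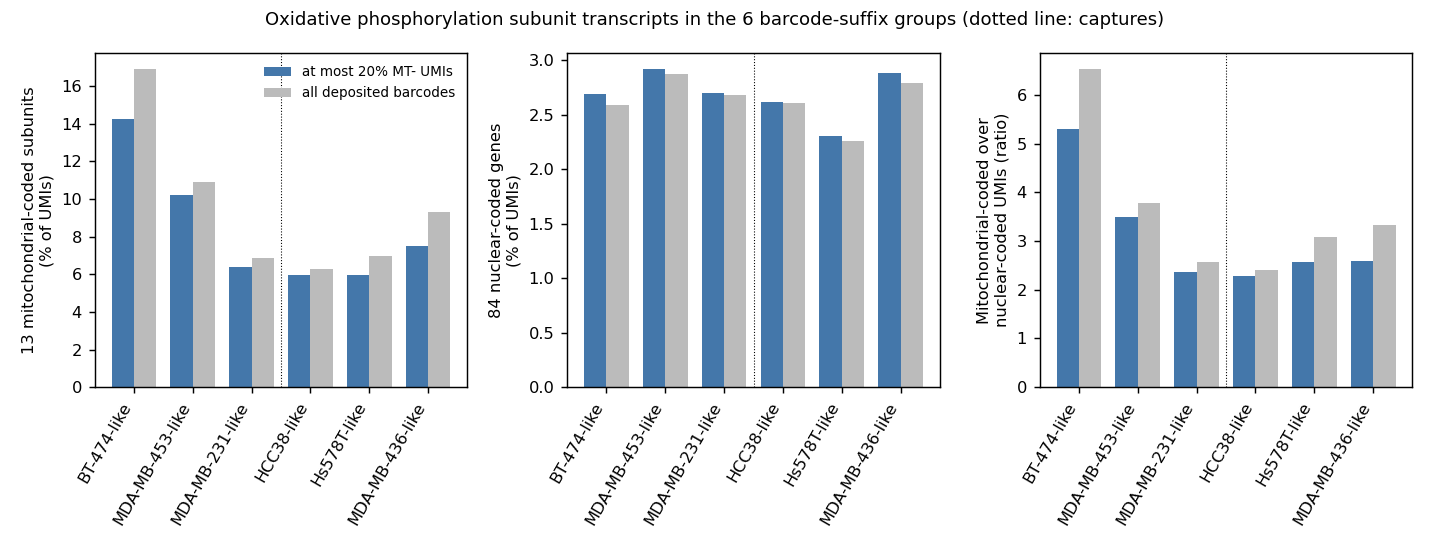
Shares of UMIs (%) taken by the 13 mitochondrial-coded and the 84 nuclear-coded genes and their ratio, in barcodes with at most 20% MT- UMIs (blue) and in all deposited barcodes (grey), for the 6 suffix groups; the dotted line separates the captures and each bar is 1 culture. BT-474-like barcodes have the highest mitochondrial-coded share, 14.3%, while nuclear-coded shares stay between 2.31% and 2.92%.

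The 20% limit acts on the same UMIs as the ratio, since the 13 mitochondrial-coded members are all the MT- genes of the table. It kept 15547 barcodes and left out 2058. The kept share was 76.7% of BT-474-like, 81.5% of MDA-MB-436-like and 86.9% of Hs578T-like barcodes, and 93.1% to 96.2% of the other 3 groups. The ratio was 5.31 at the limit, against 6.53 over all barcodes, in the BT-474-like group. In MDA-MB-436-like barcodes it was 2.60, against 3.32, and in Hs578T-like barcodes 2.58, against 3.08. MDA-MB-453-like barcodes had 3.50, against 3.79, MDA-MB-231-like barcodes 2.36, against 2.57, and HCC38-like barcodes 2.28, against 2.40. The order of the 6 groups by ratio was the same in both sets. A limit of 10% brought the groups closer, with 2.88 in BT-474-like and 2.68 in MDA-MB-453-like barcodes against 2.11 to 2.46 in the others, and kept only the lowest 218 of the BT-474-like barcodes.

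By complex, mitochondrial-coded levels spanned the widest folds in complexes III and IV, with BT-474-like barcodes highest in both. MT-CYB, the cytochrome b of complex III, stood at 15924 CPM in BT-474-like, 7465 CPM in MDA-MB-453-like, 5289 CPM in MDA-MB-231-like, 4190 CPM in HCC38-like, 4304 CPM in Hs578T-like and 7219 CPM in MDA-MB-436-like barcodes, a 3.80-fold span. The 3 cytochrome c oxidase genes MT-CO1, MT-CO2 and MT-CO3, which code the catalytic core of complex IV, summed to 84387 CPM in BT-474-like and 50992 CPM in MDA-MB-453-like barcodes, against 28941 to 40616 CPM in the other 4 groups. The 7 MT-ND genes of complex I were instead about level in MDA-MB-453-like and BT-474-like barcodes, at 29503 and 28744 CPM, and lowest in MDA-MB-231-like barcodes at 15198 CPM. MT-ATP6 and MT-ATP8, mitochondrial-coded membrane subunits of complex V, summed to 14112 CPM in MDA-MB-453-like and 13640 CPM in BT-474-like barcodes. Their lowest sum was 6524 CPM, in HCC38-like barcodes.

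Composition within the mitochondrial-coded UMIs, which does not depend on their total, also differed between lines. MT-ND1, a membrane-arm core subunit of complex I, took 6.37% of mitochondrial-coded UMIs in HCC38-like barcodes, against 2.52% in BT-474-like, 3.18% in MDA-MB-453-like, 3.57% in MDA-MB-231-like, 2.85% in Hs578T-like and 3.38% in MDA-MB-436-like barcodes. No other group came near the HCC38-like share, whose 95% interval was 6.35% to 6.39%. MT-CO3, a core subunit of complex IV, took 9.01% in Hs578T-like barcodes, the lowest share, against 12.9% to 16.7% in the other 5 groups. MT-ND4, a proton-pumping subunit of complex I, took 14.2% in Hs578T-like, 12.3% in MDA-MB-453-like and 10.5% in HCC38-like barcodes, against 6.62% in BT-474-like, 7.72% in MDA-MB-231-like and 8.42% in MDA-MB-436-like barcodes. MT-ND5, another proton-pumping subunit, took 3.21% in MDA-MB-453-like barcodes, the highest share, against 1.30% in BT-474-like barcodes, the lowest. MT-CO1 varied least, at 12.9% to 15.5%.

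Shares of the other 8 mitochondrial-coded genes differed by less than 2-fold between groups. MT-CO2 took 22.4% to 29.5%, MT-ATP6 9.47% to 14.0%, MT-CYB 7.02% to 11.2%, MT-ND3 5.35% to 8.16% and MT-ND2 2.74% to 4.16%. MT-ND4L took 0.309% to 0.590%, MT-ND6 0.191% to 0.260% and MT-ATP8 0.0827% to 0.110%. Among the 13, MT-CO3 had the widest span of level, at 23894 CPM in BT-474-like barcodes, the highest group, and 5359 CPM in Hs578T-like barcodes, the lowest, or 4.46-fold. Mitochondrial-coded shares in barcodes above 20% MT- UMIs stayed within 0.814 to 1.16 times those in barcodes at or under 20% for 10 of the genes, and reached 1.31 times for MT-ATP6, 1.69 times for MT-ATP8 and 1.89 times for MT-ND6.

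**Figure D2:**
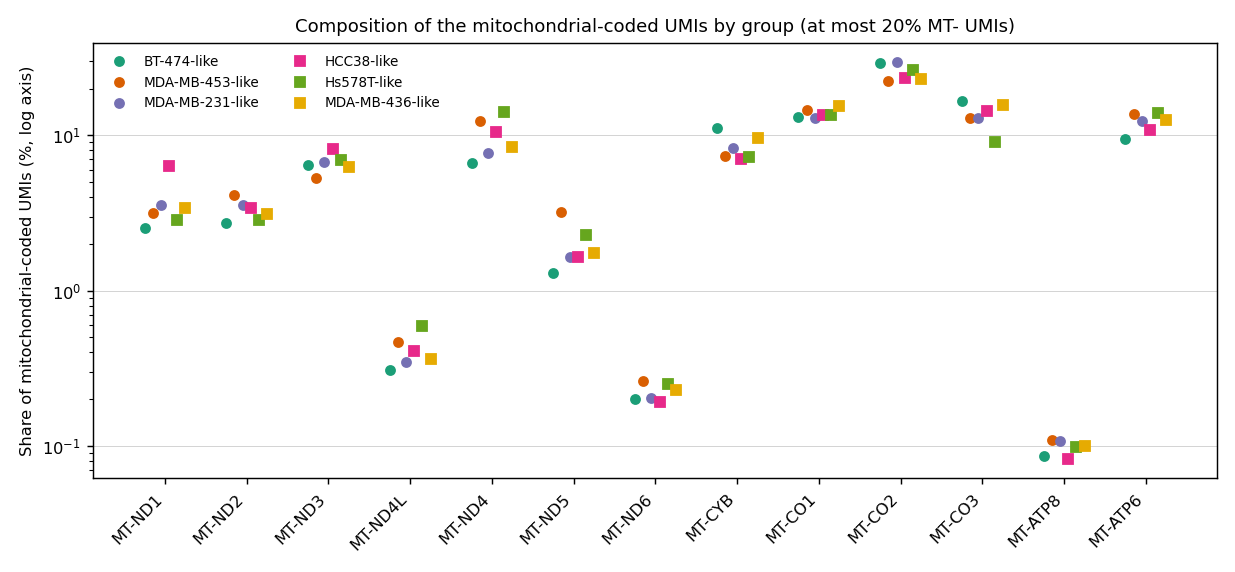
Share of the mitochondrial-coded UMIs (%, log axis) taken by each of the 13 genes in each group (circles: first capture; squares: second capture), barcodes with at most 20% MT- UMIs. MT-ND1 is highest in HCC38-like barcodes at 6.37% and MT-CO3 lowest in Hs578T-like barcodes at 9.01%.

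Neighbouring mitochondrial genes share bases, which is shown here because it limits how far counts of such pairs can be told apart. In GENCODE 29 on GRCh38, MT-ATP8 and MT-ATP6 overlap over 46 bases at chrM:8527-8572 on the plus strand, from the start codon of MT-ATP6 to the stop codon of MT-ATP8, and both messages lie on 1 transcript:
MT-ATP8 and MT-ATP6 overlap: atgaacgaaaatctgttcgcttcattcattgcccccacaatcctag
MT-ND4L and MT-ND4 overlap over 7 bases at chrM:10760-10766, and MT-ATP6 and MT-CO3 over 1 base. How reads in these bases were assigned is not given in the sources used here. GENCODE 29 also lists 394 nuclear pseudogenes named for the 13 mitochondrial genes and 150 named for 43 of the 84 nuclear-coded genes, so some reads of all these genes could match more than 1 place.

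Nuclear-coded subunits as a set varied less between lines than measured genes at large. The range of log2(CPM + 1) over the 6 groups had a median of 1.15, or 2.22-fold, over the 76 measured members. Over all 10901 measured genes the median range was 1.77, or 3.40-fold, and over the 3278 genes averaging at least 50 CPM, as 75 of the members do, it was 1.52, or 2.86-fold. In at least 1 group, 23 of the 76 (30.3%) stood at least 2-fold from the mean of the other 5 groups, where 64.4% of all measured genes and 54.2% of the genes averaging at least 50 CPM did. Counting error was small beside these spans: apart from COX7A1, the 95% Poisson interval of a measured member reached at most 3.54% of its level to either side.

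Counts of members at least 2-fold from the other 5 groups were below the share of all measured genes in every group and direction. MDA-MB-453-like barcodes had 6 of 76 higher (all measured genes: 10.5%) and 4 lower (23.1%). MDA-MB-436-like barcodes had 4 higher (9.52%) and 5 lower (20.1%). BT-474-like barcodes had 1 higher (7.37%) and 3 lower (27.1%), and MDA-MB-231-like barcodes none higher (6.56%) and 4 lower (17.2%). HCC38-like barcodes had 2 higher (10.3%) and 2 lower (13.4%), and Hs578T-like barcodes 1 higher (9.65%) and 3 lower (17.4%). COX7A1 is among the lower genes of 5 groups because its Hs578T-like level sets the mean they are compared with. Median log2 ratios of the 76 members were 0.17 in MDA-MB-453-like and -0.32 in Hs578T-like barcodes, against -0.15 and -0.16 over all measured genes in those groups. TMM scaling shifted the median of all measured genes by 0.18 in BT-474-like and -0.26 in HCC38-like barcodes. Relative to all measured genes, the members' median was 0.26 in BT-474-like, 0.32 in MDA-MB-453-like, 0.14 in MDA-MB-231-like, -0.01 in HCC38-like, -0.16 in Hs578T-like and 0.15 in MDA-MB-436-like barcodes. A scaling factor moves the members and all other genes of a group together, so these relative medians say little about the choice of scaling. Of all 2-fold calls in HCC38-like barcodes, 43.5% were higher, and 25.3% under TMM scaling, where no member was higher and 6 were lower.

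**Figure D3:**
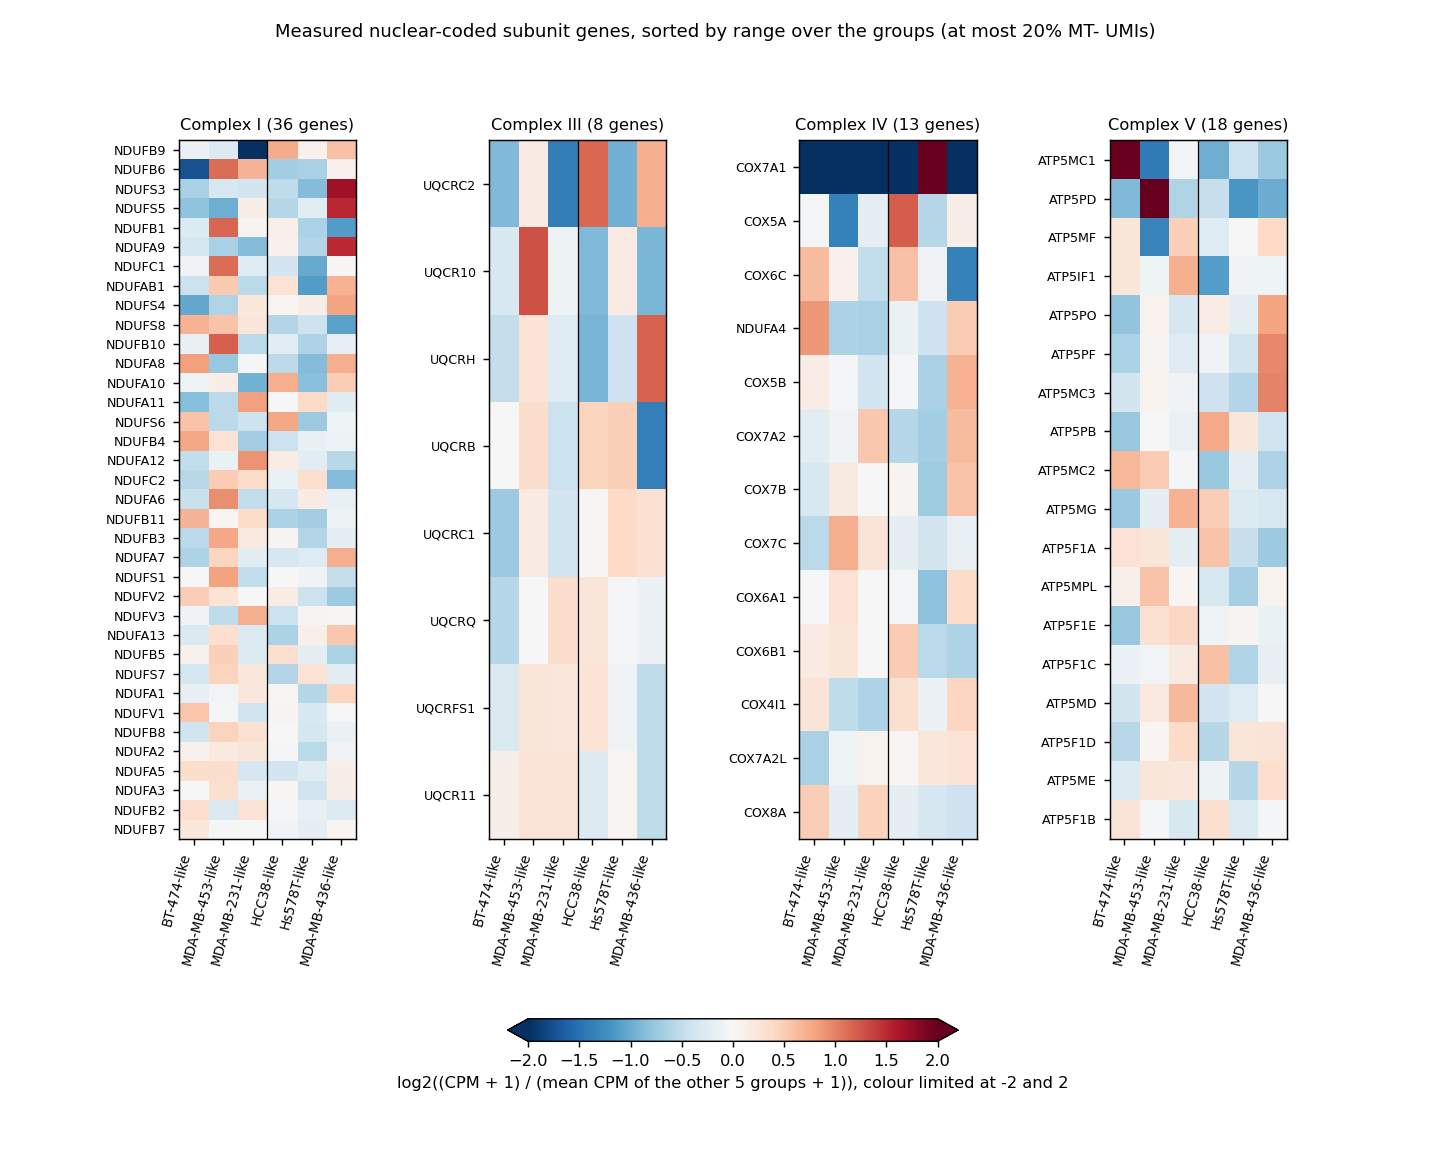
log2 ratio of (CPM + 1) to the mean of the other 5 groups for 75 of the 76 measured nuclear-coded genes, by complex, sorted by range from widest at the top; columns are the 6 groups, 1 culture each, and the vertical line separates the captures. Colours end at -2 and 2. Most cells are pale, and outside COX7A1 the strongest are ATP5PD in MDA-MB-453-like (2.24), NDUFB9 in MDA-MB-231-like (-2.07) and ATP5MC1 in BT-474-like barcodes (1.98).

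Promoters of the nuclear-coded genes hold binding motifs of regulators known for mitochondrial genes: NRF1, the ETS family that includes GABPA (CCGGAAG) and YY1, searched on both strands in 250 bases before and 50 after the RefSeq start on GRCh38.p14. RefSeq promoters matched 68 of the 84 members by symbol. The NRF1 motif stood in 15 (22.1%), against 6.28% of all 27305 promoters and 12.7% of the 8857 promoters of measured genes. The ETS motif stood in 18 (26.5%), against 10.7% and 20.4%, and the YY1 motif in 6 (8.82%), against 1.28% and 3.14%. The 120 bases before the start are printed for 6 members whose levels differed widely between lines, each 5′ to 3′ on the gene's own strand, with motif matches in capitals. NDUFA9 (chr12:4648994-4649113, plus strand) holds an NRF1 match on the reverse strand. NDUFS3 (chr11:47578954-47579073, plus) holds an ETS match on each strand. UQCRH (chr1:46303578-46303697, plus) and ATP5PD (chr17:75046970-75047089, minus) hold a reverse-strand ETS match. ATP5MC1 (chr17:48892667-48892786, plus) and COX5A (chr15:74938074-74938193, minus) have none of these letters in the window.
NDUFA9: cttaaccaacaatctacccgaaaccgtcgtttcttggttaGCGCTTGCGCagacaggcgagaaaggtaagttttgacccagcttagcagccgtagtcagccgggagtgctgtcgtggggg
NDUFS3: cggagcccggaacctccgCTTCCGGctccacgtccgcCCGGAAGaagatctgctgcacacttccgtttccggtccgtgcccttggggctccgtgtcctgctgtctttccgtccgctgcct
UQCRH: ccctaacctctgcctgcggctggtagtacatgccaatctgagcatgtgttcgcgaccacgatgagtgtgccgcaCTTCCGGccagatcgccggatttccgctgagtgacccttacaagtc
ATP5PD: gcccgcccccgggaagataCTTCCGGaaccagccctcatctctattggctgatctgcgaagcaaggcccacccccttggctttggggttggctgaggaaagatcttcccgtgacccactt
ATP5MC1: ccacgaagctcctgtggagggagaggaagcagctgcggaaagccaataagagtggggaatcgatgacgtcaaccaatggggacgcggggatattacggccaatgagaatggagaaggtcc
COX5A: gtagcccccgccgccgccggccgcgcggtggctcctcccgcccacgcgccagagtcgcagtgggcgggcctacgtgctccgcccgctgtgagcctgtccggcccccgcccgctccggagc
These are matches of letters and not known binding sites in these cells.

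Complex I, which takes electrons from NADH, had 12 of its 37 nuclear-coded genes at least 2-fold from the other groups in some line. The share of all measured genes was 64.4%, above that of each complex. Of the 12, 3 were high in MDA-MB-436-like barcodes. NDUFS3, a core subunit of the peripheral arm (chr11), stood at 324 CPM in MDA-MB-436-like barcodes, against 92.0 CPM in BT-474-like, 113 CPM in MDA-MB-453-like, 109 CPM in MDA-MB-231-like, 101 CPM in HCC38-like and 80.9 CPM in Hs578T-like barcodes, a log2 ratio of 1.70. NDUFS5, an accessory subunit (chr1), stood at 1451 CPM in MDA-MB-436-like barcodes, against 369 to 716 CPM in the other 5 (a 3.93-fold range). NDUFA9, an accessory subunit where the arms join (chr12), stood at 219 CPM in MDA-MB-436-like barcodes, against 59.5 to 106 CPM elsewhere (log2 1.49). In each of these genes the MDA-MB-436-like value was alone at the top.

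Of the accessory subunits of the membrane arm, 4 stood at least 2-fold above the other groups in MDA-MB-453-like barcodes. NDUFB6 (chr9) stood at 242 CPM in MDA-MB-453-like and 194 CPM in MDA-MB-231-like barcodes, against 140.3 CPM in MDA-MB-436-like, 90.0 CPM in Hs578T-like, 87.0 CPM in HCC38-like and 44.3 CPM in BT-474-like barcodes. NDUFB6 was thus at least 2-fold from the others at both ends of its range, with log2 ratios of 1.11 in MDA-MB-453-like and -1.74 in BT-474-like barcodes. NDUFB1 (chr14) stood at 432 CPM in MDA-MB-453-like barcodes, and its lowest value was 117 CPM in MDA-MB-436-like barcodes (log2 1.17 and -1.12). NDUFB10 (chr16) stood at 702 CPM in MDA-MB-453-like barcodes, against 259 to 343 CPM in the other 5. NDUFC1 (chr4) stood at 359 CPM in MDA-MB-453-like barcodes, and at 107 CPM in Hs578T-like barcodes, the lowest group.

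The low values in complex I were spread over lines. NDUFB9 (chr8), an accessory subunit, stood at 86.7 CPM in MDA-MB-231-like barcodes, against 272 to 483 CPM in the other 5 (log2 -2.07), the widest range of the complex at 5.52-fold. NDUFAB1, the mitochondrial acyl carrier protein, stood at 135 CPM in Hs578T-like barcodes, against 194 to 393 CPM (log2 -1.11). NDUFS8, an iron-sulfur core subunit, stood at 188 CPM in MDA-MB-436-like barcodes, against 255 to 532 CPM (log2 -1.07). NDUFS4, an accessory subunit, stood at 53.8 CPM in BT-474-like barcodes, against 70.0 to 156 CPM (log2 -1.02). The last value lay at the threshold and was -0.84 under TMM scaling, and the Hs578T-like value of NDUFC1, also at the threshold, was -0.94 under TMM scaling. NDUFB7 had the narrowest range of the complex, 314 to 394 CPM.

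Complex III, which passes electrons to cytochrome c, had 4 of 8 measured genes at least 2-fold from the others in some line. The share was 64.4% of all measured genes and 54.2% of those averaging at least 50 CPM. The symbol prefixes leave out CYC1, cytochrome c1 of this complex, which is given with other genes of the pathway below. Its log2 ratio was 1.76 in MDA-MB-436-like and -1.43 in HCC38-like barcodes. UQCRH, the hinge subunit (chr1), stood at 1651 CPM in MDA-MB-436-like barcodes, against 664 CPM in BT-474-like, 1037 CPM in MDA-MB-453-like, 757 CPM in MDA-MB-231-like, 504 CPM in HCC38-like and 693 CPM in Hs578T-like barcodes (log2 1.17). Its near-identical copy UQCRHL was at 1.87 to 7.34 CPM and took 0.314% to 0.446% of the pair's UMIs in every group, so its counts may be reads of UQCRH. UQCRB (chr8) went the other way in the same line: it stood at 253 CPM in MDA-MB-436-like barcodes, against 456 to 763 CPM (log2 -1.36). UQCR10 stood at 1069.9 CPM in MDA-MB-453-like barcodes, against 316 to 599.9 CPM (log2 1.27). UQCRC2, a core protein (chr16), stood at 201 CPM in HCC38-like and 160.4 CPM in MDA-MB-436-like barcodes, against 119 CPM in MDA-MB-453-like, 63.0 CPM in BT-474-like, 60.1 CPM in Hs578T-like and 45.6 CPM in MDA-MB-231-like barcodes. Its log2 ratio was 1.15 in HCC38-like barcodes, 0.92 under TMM scaling, and -1.39 in MDA-MB-231-like barcodes. UQCR11 varied least, at 309.6 to 484 CPM.

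Complex IV, cytochrome c oxidase, had 3 of 13 measured genes at least 2-fold from the others (all measured genes: 64.4%). COX7A1, the isoform of subunit 7A known from heart and skeletal muscle (chr19:36150922-36152869, minus strand), was found in the Hs578T-like group and is described with the paralogs below. COX5A (chr15) stood at 532 CPM in HCC38-like, 299 CPM in MDA-MB-436-like, 276 CPM in BT-474-like, 251 CPM in MDA-MB-231-like, 199 CPM in Hs578T-like and 122 CPM in MDA-MB-453-like barcodes. Its log2 ratio was 1.21 in HCC38-like barcodes, 0.95 under TMM scaling, and -1.35 in MDA-MB-453-like barcodes. COX6C (chr8) stood at 286 CPM in MDA-MB-436-like barcodes, against 490.0 to 936 CPM in the other 5 (log2 -1.35). COX8A varied least, at 535 to 898 CPM.

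Complex V, the ATP synthase, had 4 of 18 measured genes at least 2-fold from the others (all measured genes: 64.4%). Of these 4, 2 had the widest ranges of any measured nuclear-coded subunit apart from COX7A1. ATP5PD, subunit d of the peripheral stalk (chr17), stood at 861 CPM in MDA-MB-453-like barcodes, against 172 CPM in BT-474-like, 206 CPM in MDA-MB-231-like, 223 CPM in HCC38-like, 144 CPM in Hs578T-like and 162 CPM in MDA-MB-436-like barcodes, a 5.95-fold span. The MDA-MB-453-like value was alone at the top, with a log2 ratio of 2.24, and the Hs578T-like value was -1.17. ATP5MC1, a gene for the c subunit of the rotor (chr17), stood at 1264 CPM in BT-474-like barcodes, against 460.2 CPM in MDA-MB-231-like, 368 CPM in Hs578T-like, 304 CPM in MDA-MB-436-like, 262 CPM in HCC38-like and 199 CPM in MDA-MB-453-like barcodes (log2 1.98 in BT-474-like and -1.41 in MDA-MB-453-like). ATP5MF, a membrane subunit (chr7), stood at 198 CPM in MDA-MB-453-like barcodes, against 386 to 586 CPM (log2 -1.33). ATP5IF1, the inhibitor of ATP hydrolysis by the enzyme, stood at 180.0 CPM in HCC38-like barcodes, against 337 to 523 CPM (log2 -1.11). ATP5F1B, the catalytic beta subunit, varied least, at 345 to 500.3 CPM. ATP5F1E, the epsilon subunit of the central stalk, stood at 787 CPM in BT-474-like barcodes, against 1149 to 1560.3 CPM in the other 5.

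**Figure D4:**
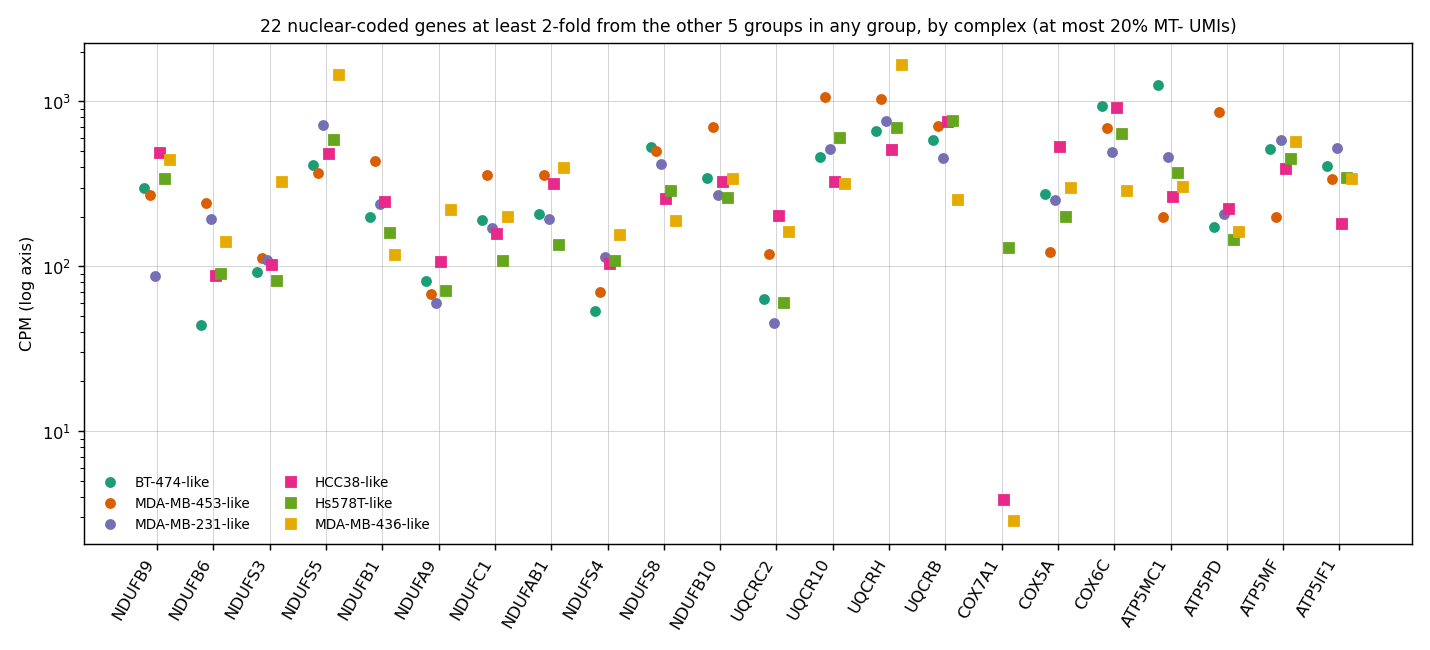
Level (CPM, log axis) of 22 of the 23 nuclear-coded genes at least 2-fold from the other 5 groups in some group, ordered by complex and then by range (circles: first capture; squares: second capture; barcodes with at most 20% MT- UMIs; groups at 0 not drawn). In most genes 1 group stands apart, as MDA-MB-436-like does for NDUFS3 at 324 CPM and MDA-MB-453-like for ATP5PD at 861 CPM.

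Among paralogous subunits, a tissue-restricted form reached 10 CPM only for COX7A1, and only in Hs578T-like barcodes. COX7A1 stood at 128 CPM in Hs578T-like barcodes, against 3.80 CPM in HCC38-like and 2.84 CPM in MDA-MB-436-like barcodes, with 0 UMIs in the 3 groups of the first capture. That allows shares of barcodes with a UMI of up to 0.132% of 2267 BT-474-like, 0.0869% of 3451 MDA-MB-453-like and 0.102% of 2942 MDA-MB-231-like barcodes. Against the floor of 3 counts per group, the Hs578T-like level was at least 2998-fold, 3287-fold and 3653-fold higher than in BT-474-like, MDA-MB-453-like and MDA-MB-231-like barcodes. COX7A1 made up 21.5% (95% interval 21.2% to 21.9%) of the UMIs of COX7A1 and the ubiquitous COX7A2 in Hs578T-like barcodes, and COX7A2 stood at 468 CPM there, the lowest of its 6 values of up to 997 CPM.

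Thinned to 10000 UMIs each, 65.2% of 1953 Hs578T-like barcodes had a COX7A1 UMI, against 2.07% of HCC38-like and 2.06% of MDA-MB-436-like barcodes. Without thinning the shares were 88.2%, 6.15% and 4.64%, at median depths of 38069, 34483 and 30199 UMIs, and thinning left out 36, 101 and 94 shallower barcodes. COX7A1 in HCC38-like and MDA-MB-436-like barcodes was at 2.96% and 2.21% of its Hs578T-like level. THY1, an Hs578T marker, was at 3.08% and 2.45% of its Hs578T-like level in the same groups, and the 5 Hs578T markers ranged over 3.08% to 8.0% and 2.45% to 59.8%. The COX7A1 values in those 2 groups thus lay slightly below the lowest marker. Whether they are background was not tested.

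Other tissue-restricted paralogs were near 0. COX7B2 reached 4.39 CPM and NDUFA4L2 1.73 CPM in Hs578T-like barcodes, against at most 0.186 and 0.430 CPM elsewhere, and these made up 1.77% of the UMIs of COX7B and COX7B2 and 0.268% of those of NDUFA4 and NDUFA4L2 in that group. COX4I2, the lung isoform, had at most 1 UMI per group, as did COX6A2, the muscle isoform. COX6B2 and COX8C, known from testis, stayed at or below 0.391 and 0.278 CPM. Their ubiquitous counterparts stood at 537 to 986 CPM (COX4I1), 301 to 604 CPM (COX6A1), 349.7 to 672 CPM (COX6B1) and 561 to 1322 CPM (NDUFA4, highest in BT-474-like barcodes). COX7B stood at 243 to 516 CPM and COX7A2L, a supercomplex assembly protein, at 115 to 199 CPM.

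The same mature c subunit is coded by 3 genes, ATP5MC1, ATP5MC2 and ATP5MC3, and their mix differed by line. ATP5MC1 supplied 55.7% of the family's UMIs in BT-474-like barcodes and 15.3% in MDA-MB-453-like barcodes, the extremes of the 6 groups. ATP5MC3 supplied 64.7% in MDA-MB-436-like barcodes, the highest share, against 21.1% in BT-474-like barcodes, the lowest. ATP5MC2 supplied 37.1% in MDA-MB-453-like and 16.0% in MDA-MB-436-like barcodes. The family as a whole stood at 2268 CPM in BT-474-like, 1301 CPM in MDA-MB-453-like, 1389 CPM in MDA-MB-231-like, 958 CPM in HCC38-like, 1117 CPM in Hs578T-like and 1569 CPM in MDA-MB-436-like barcodes.

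Genes near some members on the chromosome lay on the same side as the member, a comparison added after seeing the data. Beside UQCRB and COX6C on chromosome 8, the 37 and 39 measured genes within 5 Mb had median log2 ratios of -1.16 and -1.19 in MDA-MB-436-like barcodes, where all measured genes had -0.17. Near NDUFB9, also on chromosome 8, the 30 neighbours had a median of -1.06 in MDA-MB-231-like barcodes (all measured genes: -0.16). Neighbours of COX5A on chromosome 15 had medians of 0.77 in HCC38-like (all measured genes: -0.02) and -0.91 in MDA-MB-453-like barcodes (-0.15), the same sides as COX5A. Those of NDUFS4 had -1.62 in BT-474-like (all measured genes: -0.41), those of ATP5MF -1.01 in MDA-MB-453-like (-0.15) and those of NDUFA9 0.94 in MDA-MB-436-like barcodes (-0.17). The 73 neighbours of ATP5PD had a median of 0.60 in MDA-MB-453-like barcodes, against -0.15 over all measured genes, and 30 of them were at least 2-fold higher, where 10.5% of all measured genes were. The 95 neighbours of ATP5MC1 had a median of -0.39 in BT-474-like barcodes, close to the -0.41 of all measured genes, and yet 29 of them were at least 2-fold higher, where 7.37% of all measured genes were. The 35 neighbours of NDUFS3 had a median of 0.32 in MDA-MB-436-like barcodes (all measured genes: -0.17), with 5 at least 2-fold higher (9.52%). Only some of the 35 gene and group pairs at least 2-fold are given here. Others lay nearer all measured genes, as NDUFS8 did at -0.19 in MDA-MB-436-like barcodes (-0.17) and NDUFC1 at 0.02 in MDA-MB-453-like barcodes (-0.15). The 106 neighbours of COX7A1 had a median of -0.05 in Hs578T-like barcodes, against -0.16 over all measured genes, with 9 at least 2-fold higher, where 9.65% of all measured genes were. Neighbour windows of UQCRB and COX6C overlap, so these are not separate observations.

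Within each capture, where the lines share a library, the count of members at least 2-fold apart differed by pair and direction. MDA-MB-436-like over Hs578T-like barcodes had 15 of 76 members at least 2-fold higher (all measured genes: 14.3%) and 4 lower (15.1%). This was the only pair and direction in which the share of members, 19.7%, was above that of all measured genes. MDA-MB-436-like over HCC38-like barcodes had 6 higher (13.8%) and 4 lower (20.5%), and HCC38-like over Hs578T-like barcodes 5 higher (18.1%) and 1 lower (13%). In the first capture, BT-474-like over MDA-MB-453-like barcodes had 5 higher (10.8%) and 8 lower (16.1%), and BT-474-like over MDA-MB-231-like barcodes 5 higher (14.3%) and 5 lower (23.1%). MDA-MB-453-like over MDA-MB-231-like barcodes had 9 higher (17.3%) and 5 lower (19.3%).

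Barcodes above 20% MT- UMIs held fewer nuclear-coded subunit UMIs per non-MT- UMI than those at or under 20%, by an amount that differed between lines. The level was 29569, against 31362 CPM of non-MT- UMIs, in BT-474-like barcodes and 21492, against 32519, in MDA-MB-453-like barcodes. It was 16915, against 28863, in MDA-MB-231-like and 11715, against 27870, in HCC38-like barcodes. Hs578T-like barcodes had 12029, against 24528, and MDA-MB-436-like barcodes 16117, against 31195. As ratios these are 0.943 in BT-474-like and 0.661 in MDA-MB-453-like barcodes, and 0.420 to 0.586 in the other 4. Sums weight deep barcodes more, and the 302 BT-474-like barcodes above 40% MT- UMIs had 9955 CPM of non-MT- UMIs.

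Depth, cytosolic ribosomal protein genes and nuclear-retained RNA moved with the difference across the 20% limit, and their part in it was not tested. Median UMIs per barcode above 20% were 0.595 times those at or under 20% in BT-474-like barcodes and 0.161 to 0.246 times in the other groups. The 85 ribosomal protein genes, as a share of non-MT- UMIs, were at 0.902 times in BT-474-like and 0.393 to 0.687 times in the other groups. MALAT1 and NEAT1, long RNAs kept in the nucleus, were at 1.84 times in BT-474-like and 4.28 to 10.8 times in the others. Set against ribosomal protein UMIs, nuclear-coded subunits were at 147 to 207 per 1000 above 20% and 141 to 194 per 1000 at or under 20%.

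Gene by gene, 58 of 76 members were at least 2-fold lower above 20% in HCC38-like barcodes (all measured genes: 15.1%), 38 in Hs578T-like (7.93%), 26 in MDA-MB-436-like (3.63%) and 13 in MDA-MB-231-like barcodes (7.20%). None was in MDA-MB-453-like (0.835%) or BT-474-like barcodes (0.0183%). The BT-474-like sums above 20% rest mostly on barcodes between 20% and 40%, with 256366 of 265906 nuclear-coded UMIs. At least 2-fold higher was 1 member, COX7A1, in each of HCC38-like (27%) and MDA-MB-436-like barcodes (27.1%). COX7A1 passed the 10 CPM minimum only in Hs578T-like barcodes. In CPM of all UMIs, it stood at 5.79 above 20%, against 3.80 at or under 20%, in HCC38-like barcodes. In MDA-MB-436-like barcodes it stood at 5.88, against 2.84. Both calls thus rest on few UMIs, over 101 and 529 barcodes above 20%. Whether the COX7A1 counts in these groups are background was not tested. No member was higher in Hs578T-like (30%), MDA-MB-231-like (26.1%), MDA-MB-453-like (12.3%) or BT-474-like barcodes (0.468%). The groups above 20% held 101 to 687 barcodes. COX7A1 was at 23.2 CPM of all UMIs above 20% in Hs578T-like barcodes, against 128 CPM at or under 20%. MT- UMIs made up 45.8% of these totals above 20% and 5.95% at or under 20%. Part of that gap therefore comes from the denominator, unlike the calls above, which use non-MT- UMIs.

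Bins of the MT- share placed the difference above the limit. Up to 20%, the nuclear-coded level lay within 31324 to 33442 CPM of non-MT- UMIs in the 3 bins of BT-474-like barcodes, the highest of them resting on 14 barcodes, and 31324 to 31632 in the other 2. It lay within 31871 to 32593 in MDA-MB-453-like, 28609 to 29543 in MDA-MB-231-like, 27507 to 28421 in HCC38-like, 24055 to 25266 in Hs578T-like and 30560 to 32002 in MDA-MB-436-like barcodes. Between 20% and 40%, the 385 BT-474-like barcodes kept 31909 CPM at a median depth of 25887 UMIs. The other 5 groups had 13374 to 25685 CPM in that bin, over 30 to 107 barcodes at median depths of 7525 to 8753 UMIs. Their summed values weight deep barcodes more, and the median over barcodes in that bin was lower: 21636 in MDA-MB-453-like, 13927 in MDA-MB-231-like, 8839 in HCC38-like, 9993 in Hs578T-like and 13518 in MDA-MB-436-like barcodes, against summed values of 25685, 22443, 13374, 13597 and 19651 CPM. In BT-474-like barcodes the median over barcodes was 31940. Above 40%, all 6 groups had 8579 to 12852 CPM.

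**Figure D5:**
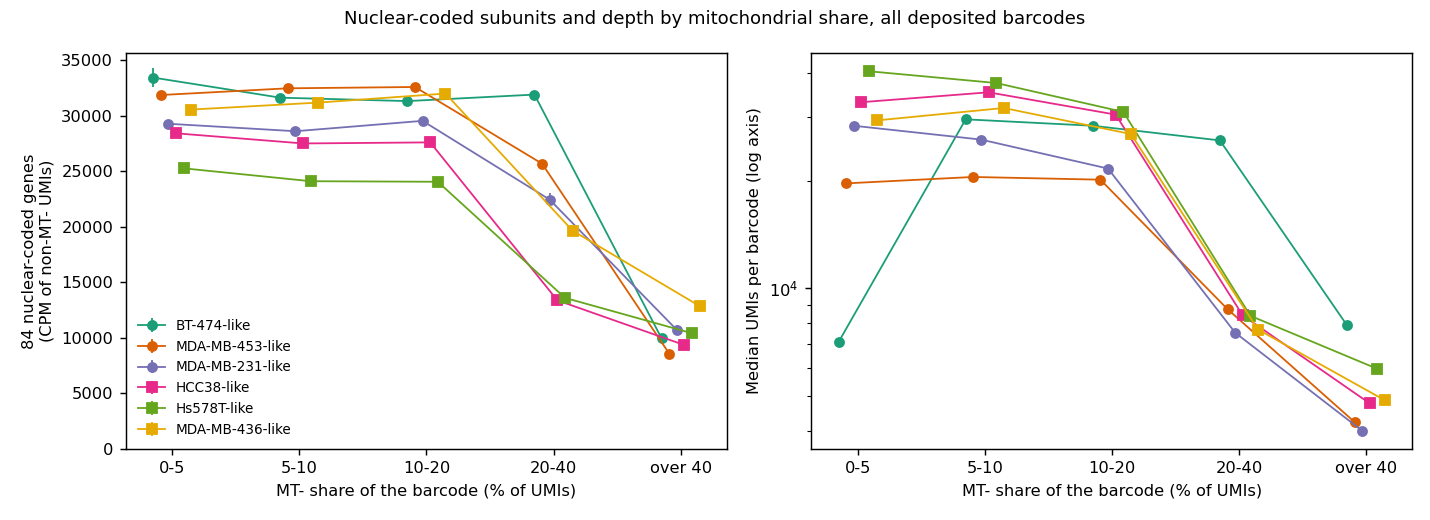
Nuclear-coded subunit level (CPM of non-MT- UMIs, with 95% Poisson intervals, left) and median UMIs per barcode (log axis, right) in bins of the barcode's MT- share (%), all deposited barcodes, 1 line per group (circles: first capture; squares: second capture). BT-474-like barcodes keep 31909 CPM in the 20% to 40% bin, where the other groups have 13374 to 25685 CPM; the BT-474-like 0% to 5% point rests on 14 barcodes.

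Among barcodes at or under 20%, the middle 90% of BT-474-like barcodes had ratios of mitochondrial-coded to nuclear-coded UMIs of 2.88 to 8.24, with a median of 5.45. The same span was 1.88 to 5.89 in MDA-MB-453-like, 1.04 to 4.3 in MDA-MB-231-like, 0.588 to 4.53 in HCC38-like, 1.16 to 4.87 in Hs578T-like and 0.941 to 5.13 in MDA-MB-436-like barcodes. The spans of MDA-MB-231-like, HCC38-like, Hs578T-like and MDA-MB-436-like barcodes thus overlapped widely. The BT-474-like span overlapped them only in part, as its median lay above the upper ends of those spans. It lay below the upper end of the MDA-MB-453-like span. Within groups, over 1989 to 3451 barcodes each, the Spearman correlation of the MT- share with the nuclear-coded share of non-MT- UMIs lay between -0.13 and 0.09, values that share a library and a depth and are given as a description.

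Other genes of the pathway, in lists drawn up with earlier results of these data known, gave the following counts under the same comparison with the other 5 groups. Of the 6 genes of complex II and the electron carriers, SDHC, an anchor of succinate dehydrogenase, and CYC1, cytochrome c1 of complex III, were at least 2-fold higher in MDA-MB-436-like barcodes (all measured genes: 9.52%), and the list's median log2 ratio there was 0.71, against -0.17 over all measured genes. CYC1 stood at 655 CPM in MDA-MB-436-like barcodes, against 111 to 263 CPM in the other 5. SDHC was at least 2-fold lower in MDA-MB-231-like (17.2%) and Hs578T-like barcodes (17.4%), and CYC1 in HCC38-like barcodes (13.4%).

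All 54 assembly factors were measured, with at most 5 higher and at most 6 lower in a group, both in MDA-MB-436-like barcodes, where 9.52% of all measured genes were higher and 20.1% lower. SDHAF3, an assembly factor of complex II, stood at 0.914 CPM in BT-474-like barcodes, against 17.2 to 45.8 CPM in the other 5. COX11, a copper chaperone of complex IV, stood at 187 CPM in BT-474-like barcodes, against 25.3 to 53.0 CPM. Both were outside the rule for named genes and were chosen after their values were seen.

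In the list of mitochondrial DNA and RNA factors, 33 of the 34 genes found under their listed symbols were measured. MDA-MB-436-like barcodes had 7 higher (all measured genes: 9.52%) and 2 lower (20.1%), with a median of 0.22, and no other group had more than 2 higher. Those 7 include LRPPRC, which stabilises mitochondrial messenger RNAs, at 273 CPM, against 79.4 to 164 CPM, and TOP1MT, the mitochondrial topoisomerase, at 71.1 CPM, against 13.1 to 32.0 CPM. Hs578T-like barcodes had 3 lower (17.4%), with a median of -0.41: TFAM, POLG2 and LRPPRC. TFAM packages mitochondrial DNA and helps start its transcription, and POLG2 is a subunit of the mitochondrial DNA polymerase. TFAM stood at 59.9 CPM in Hs578T-like, against 209 CPM in HCC38-like barcodes, the highest group, and 99.5 CPM in BT-474-like barcodes. Of 8 measured biogenesis regulators, 2 were higher in MDA-MB-436-like (9.52%) and 1 in HCC38-like barcodes (10.3%). Lower were 1 in MDA-MB-453-like (23.1%), 1 in MDA-MB-231-like (17.2%) and 2 in Hs578T-like barcodes (17.4%). The coactivator PPARGC1B stood at 29.5 CPM in HCC38-like and 27.1 CPM in MDA-MB-436-like barcodes, against 1.91 to 10.5 CPM in the other 4. ESRRA, also higher in MDA-MB-436-like barcodes, stood at 68.8 CPM there and at 21.5 CPM in HCC38-like barcodes. Of 77 measured mitochondrial ribosomal protein genes, with noncoding RNAs named after them left out, at most 7 were higher and at most 6 lower, both in MDA-MB-436-like barcodes (9.52% and 20.1%), and the list's medians lay between -0.29 and 0.05.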

How the data were processed

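Single cells of 6 cell lines were profiled with 10x Genomics 3′ chemistry and cell multiplexing oligos, and both GEO samples (gene expression and oligos) were deposited as 1 matrix. The authors' values are raw UMI counts per gene and barcode. Per the file headers, Cell Ranger 6.1.2 wrote these deposited counts, on GRCh38 (hg38) per the submitters' processing notes. How cells were called, oligos assigned and reads with several matches handled was not given in the sources used.

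Barcodes were grouped by suffix (6 groups, median depth 26552 UMIs) and each group was called by its line markers within a capture. Counts were summed per group over barcodes with at most 20% MT- UMIs and divided by the group's total (CPM). Differences are log2 ratios of CPM + 1 to the mean CPM of the other 5 groups + 1, with 2-fold as the threshold over genes of at least 10 CPM in at least 1 group. Intervals are 95% Poisson, exact binomial for shares, and cover counting error only. Scrublet in scanpy 1.11.5 (expected rate 0.06) called 1.49% and 1.79% of the barcodes of the captures; they were kept except in an alternative. Barcodes were thinned to 10000 UMIs to compare shares with a UMI. TMM factors came from edgeR 4.0.16 in R 4.3.3, and other steps ran in Python 3.11.15 with numpy 2.4.6, scipy 1.17.1, pandas 2.3.3 and matplotlib 3.10.9. The calling step was tested on simulated Poisson counts, which hold no variation between cultures or captures and so do not bear on it. Coordinates are from GENCODE 29 on GRCh38 and promoters from RefSeq on GRCh38.p14.

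Genes named were all 13 mitochondrial-coded genes, every measured nuclear-coded gene at least 2-fold from the other groups, the 3 widest and the 1 narrowest range of each complex, and fixed paralog sets, apart from 1 gene that is counted but not reported here. The members, lists and line markers were chosen with earlier results of these data known. The deposited data hold 1 culture per line, so no test was made.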

Additional observations from a re-analysis of the deposited data

How the results depend on the processing

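No paired analysis was possible because each line has 1 culture and no test was made. The groups are given in the order BT-474-like, MDA-MB-453-like, MDA-MB-231-like, HCC38-like, Hs578T-like and MDA-MB-436-like. A barcode minimum of 1000 UMIs and 500 genes left every ratio and level within its counting interval. The ratio of mitochondrial-coded to nuclear-coded UMIs over all deposited barcodes was 6.53, 3.79, 2.57, 2.40, 3.08 and 3.32. At most 10% MT- UMIs gave 2.88, 2.68, 2.21, 2.11, 2.46 and 2.27. The mean of barcode shares gave 5.29, 3.42, 2.39, 2.27, 2.65 and 2.67. Without Scrublet calls it was 5.32, 3.48, 2.32 and 2.29 in the first 4 groups and 2.61 in MDA-MB-436-like barcodes. BT-474-like barcodes had the highest and HCC38-like barcodes the lowest ratio under each of these.

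The nuclear-coded level over all deposited barcodes was 25868, 28778, 26806, 26064, 22643 and 27966 CPM. At most 10% MT- UMIs gave 29028, 29853, 27095, 26339, 23147 and 29002 CPM. A denominator without MT- UMIs gave 31362, 32519, 28863, 27870, 24528 and 31195 CPM. TMM-scaled library sizes, added after seeing the data, gave 29811, 29762, 27884, 22543, 24134 and 27500 CPM. The mean of barcode shares gave 27012, 29698, 27286 and 26550 CPM in the first 4 groups and 28562 CPM in MDA-MB-436-like barcodes. Without Scrublet calls the level was 29257 CPM in MDA-MB-453-like, 26960 CPM in MDA-MB-231-like, 26169 CPM in HCC38-like and 23009 CPM in Hs578T-like barcodes. The lowest group was Hs578T-like under each of these except TMM scaling, where it was HCC38-like.

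Under TMM scaling 3 members were at least 2-fold higher in BT-474-like barcodes, and in HCC38-like barcodes 0 were higher and 6 lower. With no minimum CPM 3 were higher in Hs578T-like barcodes, which adds COX7B2 and NDUFA4L2. The cause of these shifts was not tested. Over 280 values of the 35 named gene and group pairs under alternatives, all 280 kept their direction and 9 fell under 2-fold, from NDUFC1 in Hs578T-like, NDUFS4 in BT-474-like, and COX5A and UQCRC2 in HCC38-like barcodes. Intervals cover counting error, so differences between cultures of 1 line, between captures and between lines cannot be told apart here. Depth limits COX7A1, COX7B2 and other genes near 0.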
